A study of Mus musculus with 6 samples.

Results

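Inflammatory monocytes and monocyte-derived macrophages were taken from single-cell transcriptomes of mouse dorsal skin by a fixed rule on UMIs, the tags that mark single captured molecules. A member had at least 10 Lyz2 UMIs per 10000, at least 4 UMIs of Chil3, Vcan, Fn1 and Ly6c2 together, under 5 UMIs per 10000 of the 3 C1q genes, under 2 UMIs of Retnlg, and under 2 of Cd209a and Mgl2 together. It also lay under 20 UMIs per 10000 for Krt5 and Krt14 and under 10 for Col1a2 and Col3a1, which kept out keratinocytes and fibroblasts. The rule found 996 cells among 50850 kept cells. These were unsorted skin cells of female C57BL/6 mice of 8 to 10 weeks, in 3 groups of 2 libraries, and the skin of several mice was pooled in each library. The Sham group, labelled Normal, was left untreated. In the IMQ group a cream with 5% imiquimod was spread on the shaved back, 62.5 mg per day for 4 days. The IMQ+SHP099 group had the same cream and was given SHP099, which blocks the phosphatase SHP2 (encoded by Ptpn11) at an allosteric site, by gavage at 10 mg/kg per day for 4 days. Skin was taken 1 day after the last treatment.

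Classical monocytes leave the bone marrow through the chemokine receptor CCR2, carry Ly6C, and enter inflamed skin, where they can turn into macrophages or antigen-presenting cells. Imiquimod is an agonist of TLR7, an endosomal receptor that signals through MyD88 to NF-kB, and the cream induces a psoriasis-like inflammation in mice. The comparison of IMQ with Sham asked how the cells of inflamed skin differed from those of untreated skin, and setting IMQ+SHP099 beside IMQ asked what the inhibitor moved.

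The libraries were very unequal in members, and this set the precision of every comparison. Sham replicates 1 and 2 held 2 and 37 members, IMQ replicates 1 and 2 held 354 and 342, and IMQ+SHP099 replicates 1 and 2 held 17 and 244. Summed over members, the 2 Sham libraries gave 7276 and 220806 UMIs, the IMQ libraries 2607720 and 2398643 UMIs, and the IMQ+SHP099 libraries 80057 and 1456115 UMIs. A gene with 1 UMI in Sham replicate 1 therefore stood at 137 CPM, the UMIs per 1000000 member UMIs of a library. The median member held 3638 to 7650 UMIs, while the median kept cell held 5645 to 8854 UMIs in 5 libraries and 18264 in IMQ+SHP099 replicate 1. Kept libraries shared 12 to 30 cell barcodes per pair.

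Members made up a larger share of cells in both IMQ libraries than in either Sham library. They were 0.0233% (95% Clopper-Pearson interval 0.00282 to 0.0841) and 0.450% (0.317 to 0.619) of kept cells in Sham, and 4.61% (4.16 to 5.11) and 3.32% (2.98 to 3.69) in IMQ. The IMQ+SHP099 libraries did not resemble each other, with 0.196% (0.114 to 0.313) in replicate 1 and 3.31% (2.91 to 3.74) in replicate 2. The mean share was 3.97% ± 0.913 (SD, n = 2) in IMQ and 0.236% ± 0.301 (SD, n = 2) in Sham, a difference of 3.73 percentage points (exact two-sided permutation p = 0.333). With 2 libraries against 2, 0.333 is the smallest p that this test can give. IMQ+SHP099 averaged 1.75% ± 2.20 (SD, n = 2), lower than IMQ by 2.22 percentage points at the same exact p of 0.333, and the spread between its own libraries was of the size of that difference. The intervals cover counting error only. Each share counts cells that met the rule, so it follows the levels of the rule genes as well as the number of cells. Sham replicate 2 held 77 further cells that failed only the Cd209a and Mgl2 limit, beside its 37 members, and every other library at most 1.

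Keratinocytes enter that denominator, so 2 narrower ones were used as well. Among kept cells under the keratin limit, Sham had 0.0533% and 0.531% members, IMQ had 5.60% and 3.63%, and IMQ+SHP099 had 0.564% and 3.52%. Among cells within the Lyz2, keratin and collagen limits, a set that Lyz2 makes mostly myeloid, Sham had 2.78% and 5.01% members, IMQ had 60.8% and 49.6%, and IMQ+SHP099 had 30.4% and 68.2%. On this last scale IMQ exceeded Sham by 51.3 percentage points (exact permutation p = 0.333). IMQ+SHP099 differed from IMQ by -5.94 percentage points (exact permutation p = 1.0), and the sign of that difference turned to 12.96 without IMQ+SHP099 replicate 1.

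**Figure D1:**
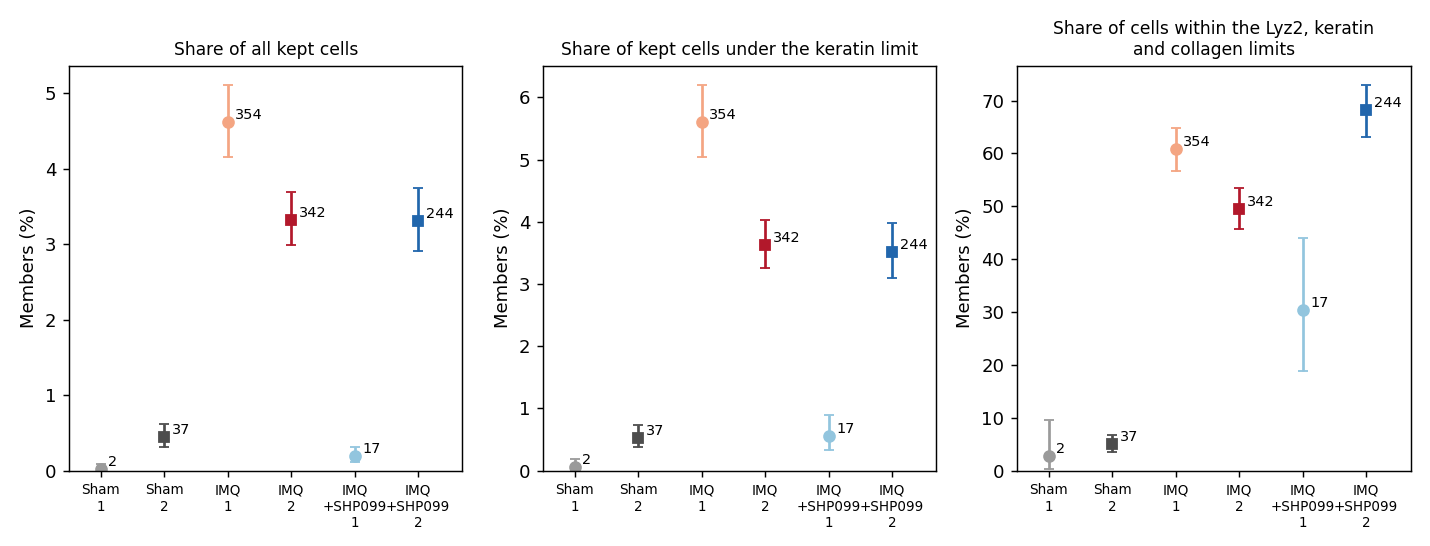
Share of members in each library (y axis, percent; bars are 95% Clopper-Pearson intervals, the number at each point is the count of members) under 3 denominators. Both IMQ libraries lie above both Sham libraries in every panel, and the IMQ+SHP099 libraries lie apart from each other.

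The members were chosen by the measured UMIs of Lyz2, the lysozyme gene of myeloid cells, of 4 further monocyte genes and of the genes kept low, so the levels of these genes are a description. Lyz2 stood at 6322 and 18830 CPM in Sham, 20880 and 17140 CPM in IMQ, and 14800 and 15610 CPM in IMQ+SHP099. Chil3, a chitinase-like protein of inflammatory monocytes, stood at 412 and 236 CPM in Sham, 6781 and 7583 CPM in IMQ, and 4872 and 4574 CPM in IMQ+SHP099. Ly6c2, the Ly6C antigen, was 2199 and 978 CPM in Sham, 884 and 1294 CPM in IMQ, and 1099 and 2266 CPM in IMQ+SHP099. Fn1, which encodes fibronectin, was 550 and 2278 CPM in Sham, 1237 and 1061 CPM in IMQ, and 762.0 and 628 CPM in IMQ+SHP099. Vcan, a proteoglycan gene of monocytes, was at 0 and 163 CPM in Sham, 642 and 448 CPM in IMQ, and 412 and 298 CPM in IMQ+SHP099. At the lower edge, members with exactly 4 UMIs of the 4 genes numbered 1 and 4 in the Sham libraries, 8 and 1 in those of IMQ, and 0 and 5 in those of IMQ+SHP099. Cells left out with 3 UMIs numbered 0 and 3, 8 and 6, and 1 and 6 in the same order.

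The label was checked against markers that the rule did not use. Plac8, a gene of circulating monocytes, stood at 1374 and 1250 CPM in Sham, 2049 and 3118 CPM in IMQ, and 2561 and 3224 CPM in IMQ+SHP099. Ccr2 was 550 and 1069 CPM in Sham, 625 and 588 CPM in IMQ, and 325 and 406 CPM in IMQ+SHP099. Csf1r, the receptor for the growth factor of the monocyte lineage, held a narrow range of 225 to 319 CPM over the 6 libraries. None of these 3 genes passed edgeR's test in IMQ against Sham or in IMQ+SHP099 against IMQ. For Plac8 the log2 fold change in IMQ against Sham was 1.44 ± 0.53 (SE; edgeR adjusted p = 0.114). In members the sums of other cells' markers, for types that the rule limits, were 166 to 587 CPM for 11 keratinocyte genes and 0 to 226 CPM for 8 fibroblast genes, against 9152 to 41100 CPM and 2005 to 12950 CPM in the other kept cells. The sum of 19 resident macrophage genes was 791 to 3986 CPM in members and 2296 to 7134 CPM in the other kept cells, and that of 14 neutrophil genes was 4188 to 13950 CPM in members of the 4 treated libraries.

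The members of both IMQ libraries differed from their myeloid neighbours in the same way. In IMQ replicates 1 and 2, Plac8 was 2049 and 3118 CPM in members, 41.1 and 40.3 CPM in C1q macrophages (5 or more C1q UMIs per 10000, under the same keratin, collagen and Retnlg limits), and 490 and 791 CPM in cells with 2 or more Retnlg UMIs, a neutrophil gene. Ccr2 was 625 and 588 CPM in members, 138 and 113 CPM in C1q macrophages, and 12.7 and 60.6 CPM in Retnlg cells. S100a8, an alarmin that neutrophils carry in bulk, was 2292 and 4657 CPM in members and 112800 and 134100 CPM in Retnlg cells. H2-Ab1, an MHC class II chain, was 244 and 148 CPM in members and 7011 and 8200 CPM in C1q macrophages. These are descriptions with no test, since the rule splits the sets.

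**Figure D2:**
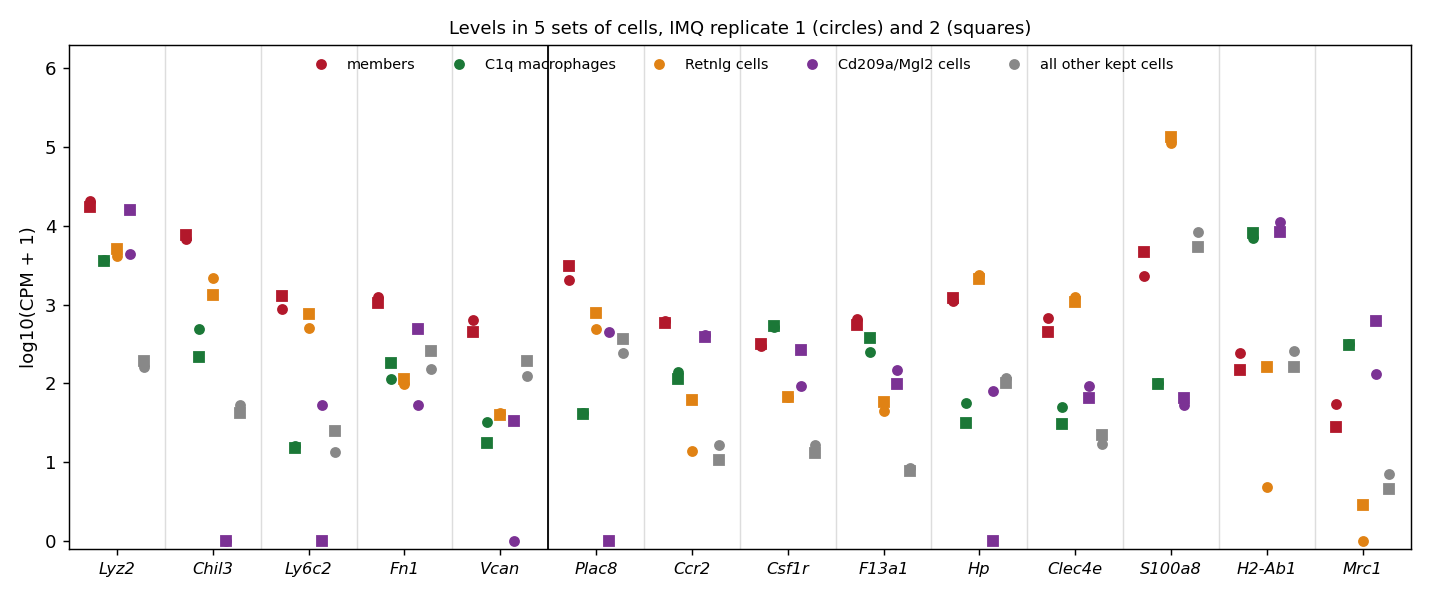
Level of 14 genes as log10(CPM + 1) in the members, in 3 neighbouring myeloid sets and in all other kept cells of the 2 IMQ libraries; the vertical line parts the 5 marker genes of the rule, on the left, from genes it did not use. Members stand above the C1q macrophages for Plac8, Ccr2 and Hp, below them for H2-Ab1 and Mrc1, and below the Retnlg cells for S100a8.

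The 37 members of Sham replicate 2 went against the label in part. Of them, 13 met the limit through Fn1 alone, against 2 of 354 and 1 of 342 in IMQ. Cells that failed only the Cd209a and Mgl2 limit, which marks dendritic-type cells, numbered 77 in Sham replicate 2 and at most 1 in any other library. When Fn1 was not counted, 20 members were left in Sham replicate 2 and 1 in Sham replicate 1. In these 20 cells Plac8 was 2672 CPM, Chil3 570 CPM and Ly6c2 2403 CPM. Retnla, a gene of alternatively activated macrophages, was 6644 CPM in the 37 members and 11.2 CPM in the 20. Each comparison with Sham below is a comparison with these cells, and fewer cells of a kind and less RNA per cell cannot be told apart in summed counts.

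Counts of members were summed per library and 6898 genes were tested with edgeR's quasi-likelihood test over all 6 libraries. In IMQ against Sham, 242 genes passed an adjusted p of 0.05, which is 3.51% of the genes tested, with 116 higher (1.68%) and 126 lower (1.83%). Of the 242, 5 were genes of the rule. For 173 genes (2.51%) the test was passed and the libraries of the groups did not overlap, while 44.1% of all genes tested had groups that did not overlap. Since nothing ties a library to a single animal, the spread behind the p-values is that between pooled libraries. The fit took this spread from a trend over all genes, with infinite prior degrees of freedom, the weight of that trend. A gene's own spread between libraries therefore had no weight in the test. In the newer dispersion estimate of edgeR the prior degrees of freedom were 15.8. The median log2 fold change over all genes was 0.10. DESeq2 called 26 genes on the same sums and the newer dispersion estimate of edgeR 85. Of the 24 genes named below, DESeq2 called 15, the newer dispersion estimate 21 and limma voom 18. Without Fn1 in the rule 13 of 20 with a value were called, and without Sham replicate 2 it was 4 of 23.

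Saa3 and Slpi were among the 12 genes named as higher in IMQ, and both passed in DESeq2, limma voom, the newer dispersion estimate and without Fn1. Saa3, an acute-phase protein, had 0 UMIs in both Sham libraries, 4188 and 2419 CPM in IMQ, and 1774 and 4679 CPM in IMQ+SHP099. Against a floor of 3 counts over the Sham group, it was at least 254-fold higher in IMQ. The other kept cells of the IMQ libraries held 7284 and 4842 CPM of Saa3, more than the members, against 1.07 and 3.96 CPM in Sham, and the part of free RNA in its rise was not tested. Slpi, an inhibitor of neutrophil proteases, had 0 and 136 CPM in Sham and 1565 and 1421 CPM in IMQ, a log2 fold change of 3.80 ± 0.65 (SE; edgeR adjusted p = 8.23e-07). Its level in the other kept cells of IMQ skin was 158 and 135 CPM, below that of the members.

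The genes named as higher held 3 receptors, Trem1, Trem3 and Fpr2. Trem1, a receptor that strengthens Toll-like receptor signals, stood at 0 and 9.06 CPM in Sham, 151 and 181 CPM in IMQ, and 125 and 166 CPM in IMQ+SHP099. Its log2 fold change in IMQ against Sham was 4.37 ± 0.81 (SE; edgeR adjusted p = 9.69e-06). The Sham level rested on 2 UMIs, and the ratio of summed counts was 18.9 with a counting interval of 5.20 to 156. Trem3, a related receptor, had 1 UMI in Sham and 57.5 and 80.5 CPM in IMQ (ratio 15.6, counting interval 2.79 to 619). Fpr2, a receptor for formylated peptides, had 2 UMIs in Sham and 127 and 149 CPM in IMQ, but 0 and 196 CPM in IMQ+SHP099. Groups of Sham and IMQ did not overlap for these 3 genes, as the rule for naming genes required. Trem1 also passed in DESeq2, limma voom, the newer dispersion estimate and without Fn1. Fpr2 passed in none of these 4, and Trem3 passed in the newer dispersion estimate alone.

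Prtn3, Wfdc21, Lrg1 and Pglyrp1, which encode secreted or granule proteins, were named as higher too. Prtn3, a serine protease of granulocyte and monocyte precursors, had 0 UMIs in Sham, 94.3 and 130 CPM in IMQ, and 99.9 and 95.5 CPM in IMQ+SHP099. Members of the IMQ libraries held more Prtn3 than the Retnlg cells of these libraries, which stood at 20.3 and 31.2 CPM. The reverse order was found for Wfdc21, a small secreted protein, at 699 and 785 CPM in members and 3882 and 4097 CPM in Retnlg cells of IMQ skin, with 0 UMIs in Sham members. Lrg1, a secreted glycoprotein, was at 237 and 231 CPM in IMQ members and at 0 in Sham, and Retnlg cells held 1264 and 1335 CPM. Pglyrp1, a protein that binds bacterial cell walls, was at 70.6 and 85.1 CPM in IMQ members against 2462 and 2203 CPM in Retnlg cells, and it passed in none of DESeq2, limma voom, the newer dispersion estimate and the rule without Fn1. Wfdc21 and Lrg1 passed in all 4, and Prtn3 in all but DESeq2.

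The neutrophil markers that the rule did not use moved in the same direction, and their level is given as a measured fact beside these genes. Of 7 tested, 5 were higher in IMQ (S100a8, S100a9, Mmp8, Lcn2 and Il1r2), with a median log2 fold change of 7.30 against 0.10 for all genes. Over all genes tested, 1.68% were higher. Il1r2 encodes a decoy receptor for IL-1, and Lcn2 an iron-binding granule protein. The sum of 14 neutrophil markers was 0 and 136 CPM in Sham members, 4188 and 7367 CPM in IMQ, and 13950 and 7023 CPM in IMQ+SHP099. In the other kept cells it was 304 and 207, 18740 and 11620, and 28950 and 11690 CPM, above the members in every library. In IMQ replicate 1, the tenth of members with the most S100a8 UMIs gave 72.3% of them, while the same share for Chil3 was 33.8%. At least 1 UMI of S100a8 was found in 276 of 354 and 271 of 342 IMQ members, and in 1 of 37 members of Sham replicate 2. In IMQ+SHP099 replicate 1, which had the highest sum, 1 of 17 members gave 63.7% of the S100a8 UMIs. For S100a9 the top member of that library gave 85.5%. The part of neutrophil RNA in the rise of Wfdc21, Lrg1, Pglyrp1, Trem1, Slpi and Ifitm1 was not tested.

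Genes named by the same rule also included Ifitm1, Gadd45a and Cxcl3. Ifitm1, an interferon-induced membrane protein, had 0 and 4.53 CPM in Sham and 874 and 377 CPM in IMQ, with 6447 and 5752 CPM in Retnlg cells. Gadd45a, a stress gene, rose from 0 and 4.53 CPM to 100.9 and 73.0 CPM. Cxcl3, a chemokine for neutrophils, was at 0 in Sham and at 52.2 and 12.5 CPM in IMQ, where it was at least 2.52-fold higher. Its call was lost in DESeq2, limma voom, the newer dispersion estimate and without Fn1, and that of Gadd45a in DESeq2.

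**Figure D3:**
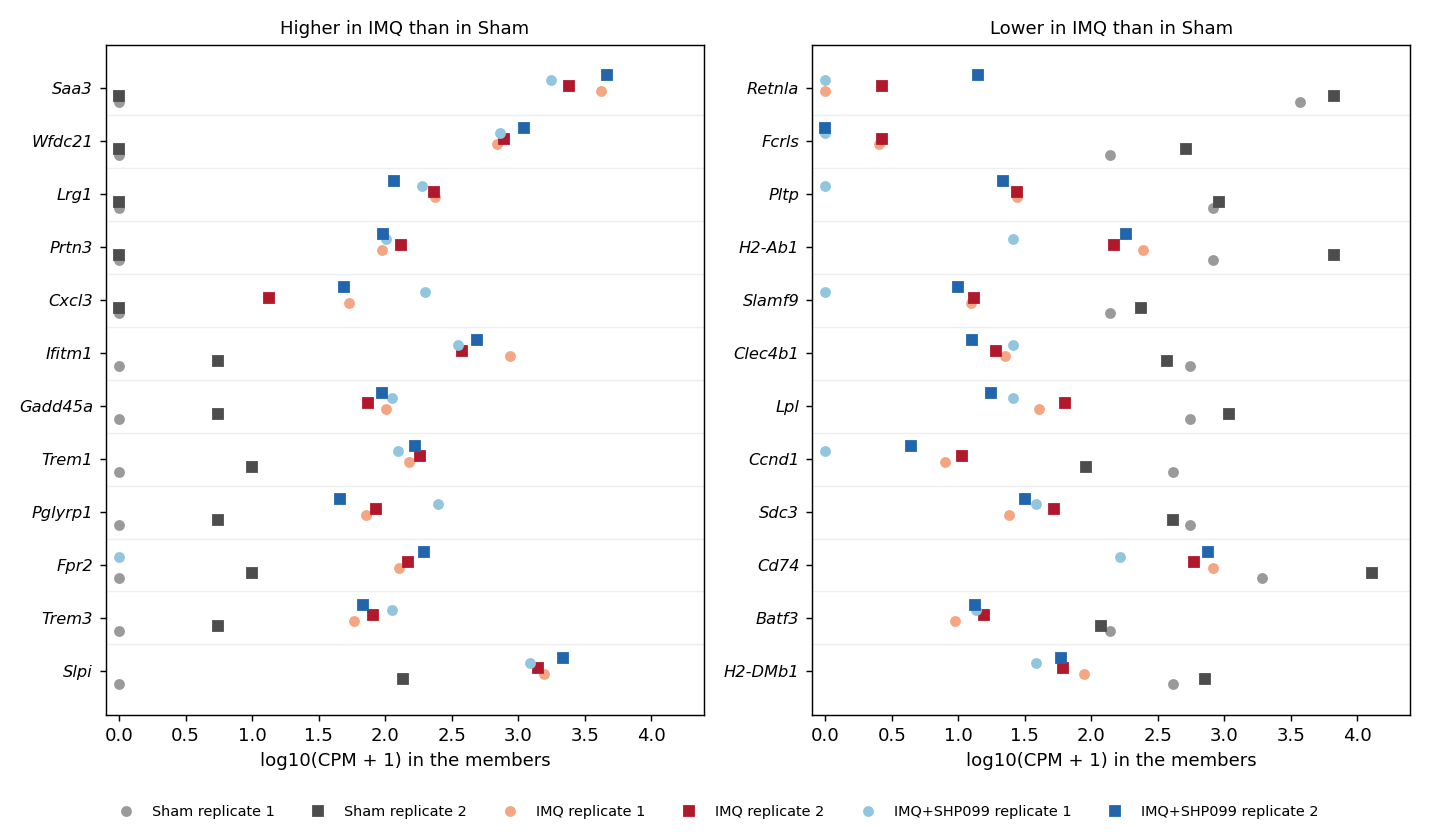
Level in the members of each library, as log10(CPM + 1), of the 12 genes named as higher (left) and the 12 named as lower (right) in IMQ than in Sham; symbols are single libraries and IMQ+SHP099 is shown beside them. The Sham points lie apart from the IMQ points for every gene, as the rule for naming genes required. A point at 0 means that no UMI was counted.

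MHC class II genes were lower in IMQ. The molecules load peptides in endosomes and show them to helper T cells, with Cd74 as the chain that guards the groove and H2-DM as the factor that exchanges peptides. Of 10 tested genes of the list, 7 were lower (H2-Aa, H2-Ab1, H2-Eb1, H2-DMa, H2-DMb1, Cd74 and Ciita) and none was higher. The median log2 fold change of the 10 was -3.09. Over all genes tested, 1.83% were lower, and 2.51% were called with groups that did not overlap. Libraries did not overlap for 5 of the 7, and H2-Aa and H2-Eb1 overlapped through the single UMI each had in Sham replicate 1.

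Levels of the class II genes in Sham were carried by replicate 2. H2-Ab1 stood at 825 and 6730 CPM in Sham, 244 and 148 CPM in IMQ, and 24.98 and 181 CPM in IMQ+SHP099. Its log2 fold change in IMQ against Sham was -4.18 ± 0.55 (SE; edgeR adjusted p = 1.73e-11). At least 1 UMI of H2-Ab1 was found in 29 of 37 members of Sham replicate 2. In IMQ it was found in 48 of 354 and 34 of 342 members. Cd74 was 1924 and 12990 CPM in Sham, 828 and 594 CPM in IMQ, and 162 and 747 CPM in IMQ+SHP099 (log2 fold change -3.24 ± 0.53 SE; edgeR adjusted p = 2.67e-07). H2-DMb1, which shares near-identical sequence with H2-DMb2 so that counts could be split between them, was 412 and 716 CPM in Sham and 86.7 and 60.03 CPM in IMQ. The class II transactivator Ciita had 137 and 31.7 CPM in Sham, from 1 and 7 UMIs, and 4.602 and 1.25 CPM in IMQ. H2-Ab1 and Cd74 were not called by DESeq2 (adjusted p = 0.615 and 1.0) or limma voom (0.109 and 0.175), and without Sham replicate 2 the log2 fold change of H2-Aa was 1.62. In the 20 members of Sham replicate 2 that were left without Fn1, H2-Ab1 was 3711 CPM and Cd74 8809 CPM, above IMQ, and 6 of 9 class II genes tested were then lower in IMQ with a median of -1.83.

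Promoters of 3 class II genes are shown because they share the same pair of short elements. Class II promoters are known to carry an X box and a Y box upstream of the start, to which Ciita is brought. The sequences are from RefSeq on GRCm38.p6, the 140 bases before the start, on the strand of the gene; capitals mark the X-box letters CTNGNAACT and the Y-box letters TGATTGG, which were chosen after these promoters were seen. H2-Aa lies at chr17:34287824-34287963 on the minus strand, H2-Eb1 at chr17:34305727-34305866 and H2-DMb1 at chr17:34153051-34153190, both on the plus strand.
H2-Aa: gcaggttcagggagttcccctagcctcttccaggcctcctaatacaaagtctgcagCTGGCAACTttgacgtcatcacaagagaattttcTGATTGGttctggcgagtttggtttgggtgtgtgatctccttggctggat
H2-Eb1: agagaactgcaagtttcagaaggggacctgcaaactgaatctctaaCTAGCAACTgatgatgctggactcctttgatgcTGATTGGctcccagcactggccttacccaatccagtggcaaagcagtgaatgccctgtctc
H2-DMb1: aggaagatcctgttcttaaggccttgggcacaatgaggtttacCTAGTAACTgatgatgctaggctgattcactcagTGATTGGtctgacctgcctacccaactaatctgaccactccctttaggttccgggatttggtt
Among 32851 promoters of the same length, searched on both strands, 1.81% held the X-box letters, 5.54% the Y-box letters and 0.103% (34 promoters) held both. H2-DMb2 and H2-Oa held the Y-box letters only, and H2-DMa, Ctss and Cd80 held neither. Promoters of H2-Ab1, Cd74 and Ciita, which were also called lower, are not given here. A match is a description of letters and not of binding.

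Among the genes named as lower were Retnla, Fcrls, Lpl and Pltp. Retnla had 3711 and 6644 CPM in Sham, 0 and 1.67 CPM in IMQ, and 0 and 13.1 CPM in IMQ+SHP099 (log2 fold change -12.13 ± 0.84 SE; edgeR adjusted p = 1.3e-43). Fcrls, an Fc-receptor-like scavenger gene, had 137 and 516 CPM in Sham and 1.53 and 1.67 CPM in IMQ. Lpl, lipoprotein lipase, had 550 and 1082 CPM in Sham and 39.1 and 62.1 CPM in IMQ. Pltp, a phospholipid transfer protein, had 825 and 915 CPM in Sham and 26.8 and 26.7 CPM in IMQ. All 4 had groups that did not overlap, as the rule for naming genes required. All 4 rested in part on members that met the limit through Fn1. Without Fn1, Sham replicate 2 held 11.2 CPM of Retnla, 0 of Fcrls, 134 CPM of Lpl and 145 CPM of Pltp.

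The remaining genes named as lower were Slamf9, Clec4b1, Ccnd1, Sdc3 and Batf3. Batf3, a transcription factor of dendritic cells, stood at 137 and 118 CPM in Sham, from 1 and 26 UMIs, and at 8.44 and 14.6 CPM in IMQ. Clec4b1, a C-type lectin, was 550 and 367 CPM in Sham and 21.5 and 18.3 CPM in IMQ. Ccnd1, cyclin D1, was 412 and 90.6 CPM in Sham and 6.90 and 9.59 CPM in IMQ. Slamf9 and Sdc3, both membrane proteins, lay at 137 to 550 CPM in Sham and at 11.5 to 51.3 CPM in IMQ. The sum of 13 dendritic markers was 137 and 385 CPM in Sham members and 178 and 168 CPM in IMQ, and its part in these changes was not tested. In the 20 members without Fn1, Slamf9 was at 11.2 CPM and Ccnd1 and Batf3 at 22.4 CPM each.

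**Figure D4:**
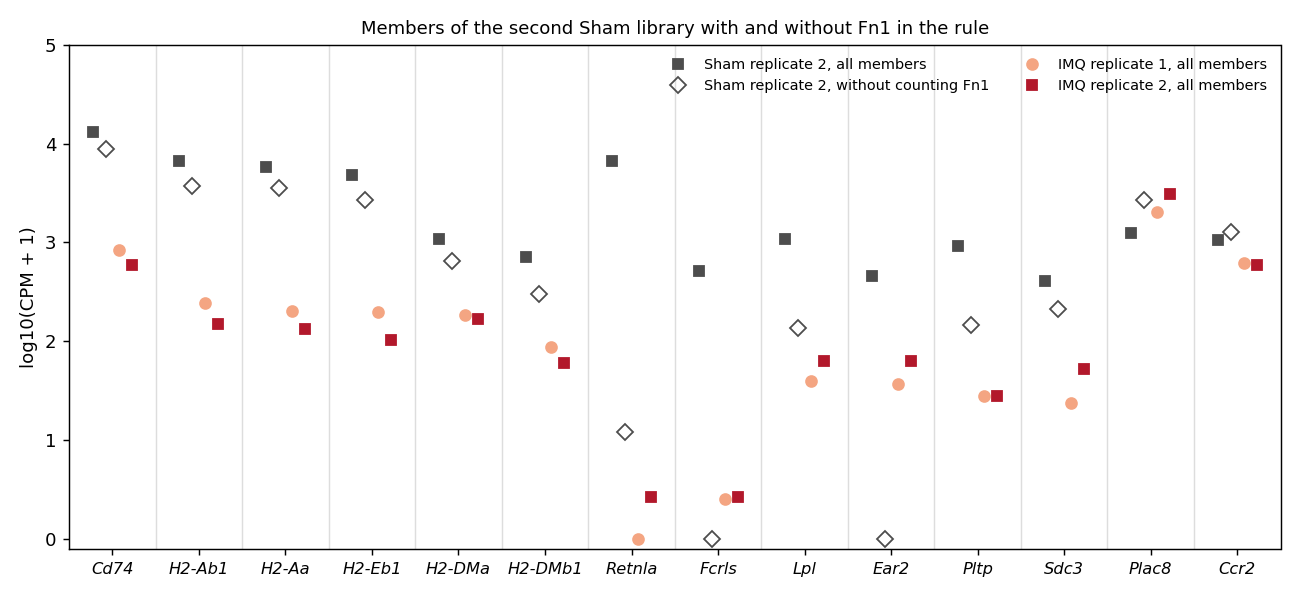
Level of 14 genes as log10(CPM + 1) in Sham replicate 2, with all 37 members and with the 20 that met the rule without Fn1, beside the members of the 2 IMQ libraries. The class II genes stay above IMQ in the 20 cells, while Retnla goes from 6644 to 11.2 CPM and Fcrls and Ear2 go to 0.

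Of 22 classical monocyte genes, all tested, 7 were higher (Hp, Msrb1, Mgst1, Clec4e, Clec4d, Cd14 and Gsr) and none was lower. The median log2 fold change of the 22 was 1.43. Over all genes tested, 1.68% were higher and 1.83% lower, with a median of 0.10. DESeq2 called 3 of the 22, the newer dispersion estimate 5 and limma voom 7, and without Fn1 in the rule 2 were called. Hp, the haemoglobin scavenger haptoglobin, stood at 0 and 140 CPM in Sham, 1114 and 1199 CPM in IMQ, and 1024 and 1181 CPM in IMQ+SHP099 (log2 fold change 3.38 ± 0.63 SE; edgeR adjusted p = 1.28e-05). Cd14, the co-receptor for lipopolysaccharide, stood at 275 and 186 CPM in Sham and 1066 and 705 CPM in IMQ. The lectin receptors Clec4e and Clec4d, which sense fungal and mycobacterial glycolipids, were at 0 and 163 CPM and at 0 and 49.8 CPM in Sham, and at 673 and 447 CPM and at 250 and 168 CPM in IMQ. Of 20 wound macrophage genes tested, 4 were higher, among them Trem2, a lipid receptor, with 0 and 13.6 CPM in Sham and 124 and 126 CPM in IMQ. Of 9 tested genes of resident macrophages, Mrc1, the mannose receptor, was lower, at 0 and 380 CPM in Sham and 54.5 and 27.1 CPM in IMQ, with groups that overlapped, and DESeq2, limma voom and the newer dispersion estimate called 0 of the 9.

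The calls among secreted signals did not hold in other tools. Over all genes tested, 1.68% were higher and 1.83% lower. Of 14 cytokines tested, Il1b, Il10 and Tnfsf9 were higher and Il1rn, which encodes the antagonist of the IL-1 receptor, was lower, but DESeq2, limma voom, the newer dispersion estimate and the rule without Fn1 each called 0 of the 14. Il1b was at 0 and 480 CPM in Sham, 1780 and 993 CPM in IMQ, and 4060 and 1328 CPM in IMQ+SHP099 (log2 fold change in IMQ against Sham 2.09 ± 0.56 SE; edgeR adjusted p = 0.00883). Il10, an anti-inflammatory cytokine, had 0 UMIs in Sham and 39.1 and 20.4 CPM in IMQ. Tnf was 275 and 371 CPM in Sham and 509 and 278 CPM in IMQ and did not pass. Il6 was 0 and 18.1 CPM in Sham and 52.5 and 51.7 CPM in IMQ and did not pass either. Of 13 chemokines, Ccl3 and Cxcl3 were higher, and Ccl3 stood at 275 and 326 CPM in Sham and 1266 and 602 CPM in IMQ, while DESeq2, limma voom and the newer dispersion estimate each called 0 of the 13. Without Fn1 in the rule 2 of the 13 were called higher, and Cxcl3 was not among them. Il23a, Arg1, Nos2 and Mmp9 were too low to test, with 14, 29, 5 and 5 UMIs in the IMQ group. Of 20 chemokine and adhesion receptors, 6 were higher (Ccr1, C5ar1, Fpr1, Fpr2, Itgal and Itgb7), against 0 with DESeq2, 1 with the newer dispersion estimate, 2 with limma voom and 0 without Fn1.

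The pathway from TLR7 to NF-kB gave these counts, set beside 3.51% of all genes tested, with 1.68% higher and 1.83% lower. Tlr7 was at 0 and 27.2 CPM in Sham, 26.1 and 42.1 CPM in IMQ, and 12.5 and 41.9 CPM in IMQ+SHP099. Of 20 Toll-like receptor and adaptor genes, Cd14 and Lbp were higher, and the adaptor Myd88, at 0 and 58.9 CPM in Sham and 107 and 120.5 CPM in IMQ, did not pass. Of 21 NF-kB genes, Tnip1 and Sod2 were higher and Tnip3 was lower. Ptpn11 stood at 0 and 40.8 CPM in Sham, 26.8 and 32.5 CPM in IMQ, and 12.5 and 22.7 CPM in IMQ+SHP099, and passed in neither comparison. The Sham group held 6 UMIs of Tlr7 and 9 of Ptpn11, and 1 of 17 members carried each gene in IMQ+SHP099 replicate 1. At such counts a gene that did not pass is not shown to be unchanged. Of 20 genes of SHP2, SHP1, adaptors and inhibitory receptors, Cd300lf was higher. Of 12 genes of ERK feedback, a pathway that SHP2 feeds, Egr2 and Ccnd1 were lower. Of 29 interferon-stimulated genes, 5 were lower (Ifit1, Oasl1, Rsad2, Stat2 and Cmpk2) and none was higher, and the groups did not overlap for 2 of them. DESeq2 called 0 of the 29, the newer dispersion estimate 1 and limma voom 3.

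The lists of effector functions gave these counts, set beside 3.51% of all genes tested, with 1.68% higher and 1.83% lower. Of 16 complement and matrix genes, C3, Serping1 and Mmp8 were higher and Timp2 was lower. Of 18 genes of the oxidative burst and lysosome, Ncf4 and Lcn2 were higher. Of 14 C-type lectin and Fc receptors, Clec4d and Clec4e were higher and Clec10a and Mrc1 lower. Of 12 genes of lipid mediators, Pla2g7 and Fabp4 were higher and Lpl was lower. Of 12 non-classical monocyte genes, Pglyrp1, Itgal and Pou2f2 were higher and Ear2 was lower, and of 19 growth factor receptors and transcription factors Nr4a3 was lower. DESeq2 called 1 gene each among the complement and matrix, the oxidative burst and lysosome, and the lipid mediator genes. It called 0 of the C-type lectin and Fc receptors, the non-classical monocyte genes, and the growth factor receptors and transcription factors. No gene of 20 of glycolysis and hypoxia or of 10 of the cell cycle passed edgeR's test, with 5 and 3 genes at an unadjusted p under 0.05. DESeq2 and the newer dispersion estimate called 0 of both lists, and limma voom called 0 and 1. Of the 16 genes of dissociation stress, Hsph1 was lower, against 0 genes called with DESeq2. The study picked a list of 10 hub genes on these samples, which is therefore no independent evidence, and of 7 tested Cd14, C3 and Clec4d were higher. DESeq2 and the newer dispersion estimate each called 1 of the 7, and without Fn1 in the rule 0 were called.

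SHP099 was compared with the cream alone. In IMQ+SHP099 against IMQ, 84 of 6898 genes passed (1.22%), 36 higher (0.522%) and 48 lower (0.696%), and 69 (1.0%) also had groups that did not overlap, against 37.8% of all genes with such groups. The median log2 fold change over all genes was -0.01. These calls depended on the tool, since DESeq2 called 1 gene, limma voom 3 and the newer dispersion estimate of edgeR 17. None of the 15 genes named below was called by those 3 tools, and none was called when either IMQ library was left out.

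Among the genes named as higher, 3 encode histones. Hist1h1c was 95.5 and 174 CPM in IMQ and 899 and 203 CPM in IMQ+SHP099 (log2 fold change 1.77 ± 0.37 SE; edgeR adjusted p = 0.00028). Hist1h2bc was 119 and 156 CPM in IMQ and 737 and 227 CPM in IMQ+SHP099, and Hist1h4i was 27.6 and 38.4 CPM and 150 and 77.6 CPM. In all 3 the library with 17 members was the higher one. Ifi205, a gene of the interferon-inducible p200 family, was 15.7 and 29.6 CPM in IMQ and 37.5 and 65.2 CPM in IMQ+SHP099, and Ifi213 was 30.7 and 42.5 CPM and 62.5 and 78.3 CPM. AW112010, a long transcript of activated immune cells, was 103 and 86.7 CPM in IMQ and 150 and 502 CPM in IMQ+SHP099.

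Checkpoint, class I and metabolic genes were also among those named. Cd274, the checkpoint ligand PD-L1, was 67.5 and 78.8 CPM in IMQ and 275 and 170 CPM in IMQ+SHP099, a log2 fold change of 1.46 ± 0.31 (SE; edgeR adjusted p = 0.000465). Acod1, which makes the metabolite itaconate, was 100.1 and 103 CPM in IMQ and 362 and 174 CPM in IMQ+SHP099. H2-Q7, a non-classical class I gene with close paralogs, was 38.0 and 45.4 CPM and 62.5 and 106 CPM, and Gm11808 was 119 and 110.1 CPM and 175 and 304 CPM.

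Lower genes were Cd81, Cxcl1, Tpm1, Ifit1 and Trem2. Cxcl1, a chemokine for neutrophils, stood at 169 and 95.5 CPM in IMQ and 12.5 and 36.4 CPM in IMQ+SHP099, and at 0 and 67.9 CPM in Sham. Its log2 fold change was -1.89 ± 0.35 (SE; edgeR adjusted p = 3.53e-05). The other kept cells held 210 and 347 CPM of Cxcl1 in IMQ and 140 and 301 CPM in IMQ+SHP099. Trem2 was 124 and 126 CPM in IMQ and 49.96 and 50.8 CPM in IMQ+SHP099. Cd81, a tetraspanin, was 44.5 and 65.9 CPM and 24.98 and 9.62 CPM, and Ifit1, an interferon-stimulated gene, was 66.3 and 44.2 CPM and 24.98 and 16.5 CPM. Tpm1, tropomyosin, was 49.5 and 56.7 CPM and 37.5 and 12.4 CPM. Markers of mural cells, which lie around vessels, fell as well (Rgs5, Acta2 and Myh11). Their list summed to 279 and 412 CPM in IMQ members and 0 and 45.3 CPM in IMQ+SHP099 members, and to 2375 and 3303, and 242 and 3287 CPM in the other kept cells. The part of this in the lower values of Tpm1 and Cd81 was not tested.

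**Figure D5:**
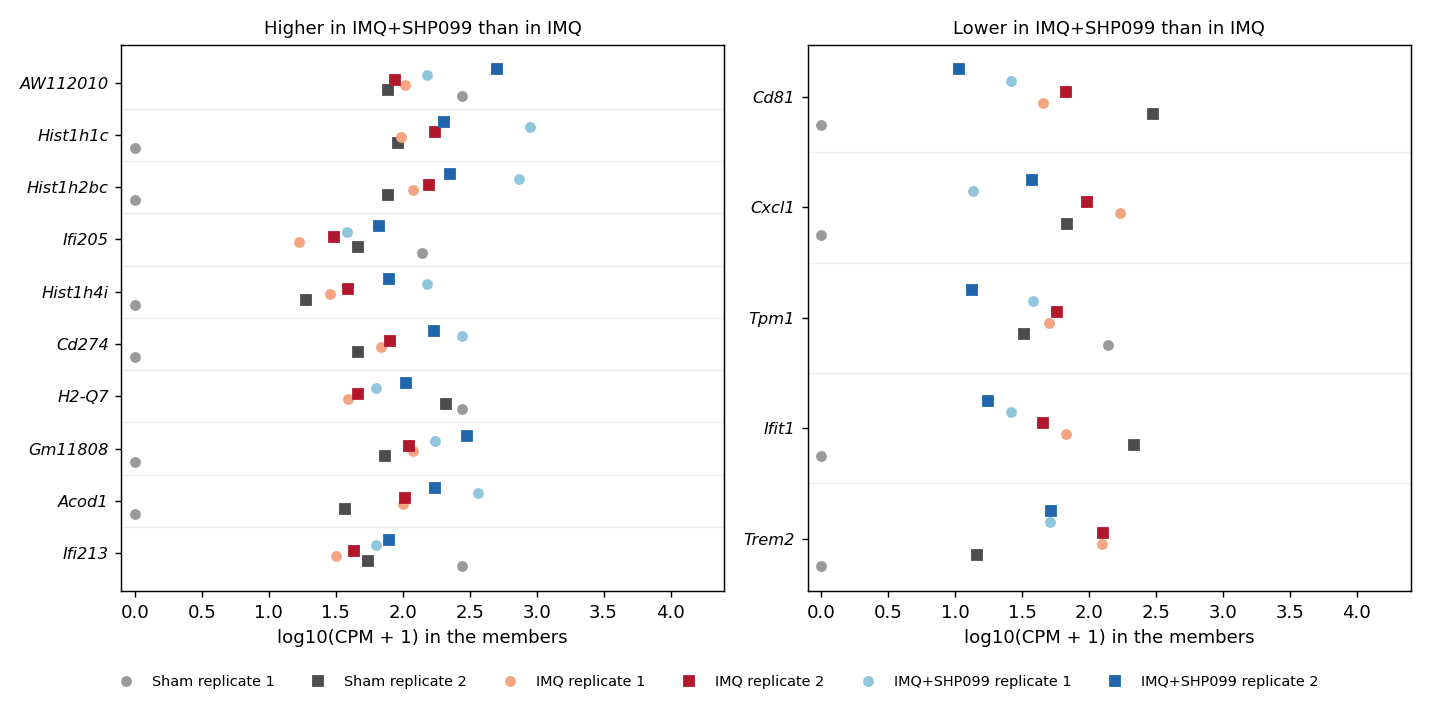
Level in the members of each library, as log10(CPM + 1), of the 10 genes named as higher (left) and the 5 named as lower (right) in IMQ+SHP099 than in IMQ; symbols are single libraries. The 2 IMQ+SHP099 points lie on the same side of the 2 IMQ points for every gene, as the rule for naming genes required. The histone genes are highest in the library with 17 members.

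The lists gave these counts in IMQ+SHP099 against IMQ, set beside 1.22% of all genes tested, with 0.522% higher and 0.696% lower. With 17 members in IMQ+SHP099 replicate 1, a gene that did not pass is not shown to be unchanged. None of 20 Toll-like receptor genes, none of 21 NF-kB genes and none of 20 SHP2 genes passed edgeR's test, with median log2 fold changes of 0.20, 0.07 and -0.07 and with 3, 0 and 0 genes at an unadjusted p under 0.05. None of 22 classical monocyte genes and none of 12 ERK feedback genes passed, with medians of -0.05 and -0.01 and with 0 and 1 genes at an unadjusted p under 0.05. DESeq2, limma voom and the newer dispersion estimate also called 0 genes of these 5 lists. In a further fit both libraries of under 20 members were left out. The medians of the 5 lists, in the same order, were then 0.28, 0.19, 0.01, 0.12 and -0.10. Of 14 cytokines, Il10 was lower, at 39.1 and 20.4 CPM in IMQ and 24.98 and 4.12 CPM in IMQ+SHP099, with groups that overlapped. Of 13 chemokines, Ccl7 and Pf4 were higher and Cxcl1 was lower, and the rise of Ccl7, from 54.1 and 48.4 CPM to 812 and 30.9 CPM, came from the library with 17 members alone. Of 20 wound macrophage genes tested, Inhba, Fabp5 and Cd274 were higher and Trem2 was lower. Inhba and Fabp5 had the same shape as Ccl7. Of 10 class II genes, Cd80 was higher, at 16.5 and 15.4 CPM in IMQ and 99.9 and 32.3 CPM in IMQ+SHP099. Of 29 interferon-stimulated genes, Ifi205 and Gbp2 were higher and Ifit1 was lower, and DESeq2, limma voom and the newer dispersion estimate each called 0 of the 29.

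IMQ+SHP099 was also set against Sham, a comparison that shares its libraries with both others. In it 241 genes passed (3.49%), 119 higher (1.73%) and 122 lower (1.77%), while 163 (2.36%) passed with groups that did not overlap, against 34.1% of all genes with such groups. Of the 10 class II genes, 7 were lower. Saa3 was at least 344-fold higher than in Sham, and Wfdc21 at least 82.7-fold higher. H2-Ab1 and Cd74 were lower than in Sham, and between IMQ+SHP099 and IMQ neither passed (edgeR adjusted p = 1.0 for both), with log2 fold changes of -0.54 ± 0.52 (SE) and -0.49 ± 0.50 (SE).

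The changes in the members were set against those in C1q macrophages of the same libraries, a set of 789 cells, with a test of the difference itself over 7835 genes. The difference passed for 159 genes (2.03%) in IMQ against Sham, 102 of them with the larger value in the members, and for 77 genes (0.983%) in IMQ+SHP099 against IMQ, 10 of them with the larger value in the members. Of the 24 genes named in IMQ against Sham, which were chosen by the size of their change in the members, 12 passed. When Fn1 was not counted, an alternative chosen after seeing the data, 3 of the 12 (Lrg1, Gadd45a and Pltp) still passed, and 62 genes in all. Slamf9 fell by 4.09 on the log2 scale in the members while the C1q macrophages held 292 and 155 CPM in Sham and 193 and 280 CPM in IMQ. Without Fn1 the difference for Slamf9 went from -4.52 to -0.33 (edgeR adjusted p = 0.982). Clec4b1 had 110 and 150 CPM of Clec4b1 in Sham and 141 and 209 CPM in IMQ in the C1q macrophages. H2-Ab1 did not pass (adjusted p = 0.053 by edgeR), nor did Saa3, which reached 941 and 363 CPM in the C1q macrophages of IMQ. Of the 15 genes named in IMQ+SHP099 against IMQ, Cxcl1, Tpm1 and Ifit1 passed, and Cxcl1 in the C1q macrophages was 62.0 and 19.0 CPM in IMQ and 96.2 and 137 CPM in IMQ+SHP099.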

How the data were processed

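Cells of mouse dorsal skin were profiled with 10x 3' libraries. The deposited values are UMI counts per gene and barcode, made by the authors with Cell Ranger against GRCm38 (mm10). The study compared single cells by rank tests after integration, while here cells were summed per library, because cells of 1 library are not replicates.

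Of 55201 barcodes, 50850 were kept, each below 100000 UMIs, 6500 genes and 10% mitochondrial UMIs. Scrublet called no doublet in 3 libraries, where it had not worked, and 1.64 to 3.13% in the others. It was not used as a filter, and 9 members were called. Library totals were 53913865 to 188283327 UMIs.

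Member counts were tested with edgeR 4.0.16 in R 4.3.3 (quasi-likelihood, TMM, filterByExpr, 1 fit over 6 libraries with group as the term), with Benjamini-Hochberg adjustment over all genes tested. The 15 genes of the rule were not reported as results. Alternatives were DESeq2 1.42.0, limma 3.58.1 voom, the newer dispersion estimate, a replicate block, other normalization and filters, thinned counts, other limits of the rule and each library left out. Calls were tested on simulated data. The difference between members and C1q macrophages was tested as an interaction in a fit on both sets.

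Genes named in a comparison had an adjusted p under 0.05, at least 50 CPM on average over the 6 libraries and no overlap between groups, and were neither in the rule nor in a marker list of other cells. Up to 12 of the largest log2 fold changes in each direction were taken, and up to 4 genes of each list beside fixed genes such as Ptpn11 and Tlr7. Genes named beyond these, such as further list members that passed, were chosen after their values were seen. Members and lists were chosen with earlier results of these data known. Counts of 4 list genes (Il36g, Mx2, Clec6a and Clec7a) were not used here.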

Additional observations from a re-analysis of the deposited data

Results flagged for a closer look

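In IMQ against Sham the change differed between the members and the C1q macrophages of the same libraries for 12 of the 24 named genes. This was the edgeR test of the difference, which 2.03% of all genes tested passed. The 24 had been named by the size of their change in the members. Lrg1 and Gadd45a had the larger value in the members. The fitted difference was 9.87 on the log2 scale for Lrg1 (adjusted p = 0.000273), which is no measured size, since both Sham libraries held 0 UMIs of Lrg1 in members and the change there was at least 17.8-fold. For Gadd45a it was 5.49 ± 1.06 (SE; adjusted p = 4.92e-05), from 1 UMI in Sham members. In 10 genes the members had the lower value. The differences were -10.76 for Retnla, -6.73 for Fcrls, -4.46 for Pltp, -4.52 for Slamf9, -4.36 for Clec4b1, -2.78 for Lpl, -3.13 for Ccnd1, -1.65 for Sdc3, -3.50 for Batf3 and -2.47 for H2-DMb1, with adjusted p between 3.73e-21 for Fcrls and 0.0364 for Sdc3.

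Most of these lower values depended on counting Fn1 in the rule. When Fn1 was not counted, Pltp kept its call among the 10, at -2.76 (edgeR adjusted p = 0.0332), and Retnla, Fcrls and Lpl turned to 0.46, 4.94 and 0.0014 with adjusted p of 0.991, 0.874 and 1.0. With the newer dispersion estimate 11 of the 12 were called, all but Sdc3. Over 12 alternatives, Pltp and Gadd45a were called in 11, Lrg1, Retnla, Fcrls, Slamf9, Clec4b1 and Batf3 in 10, Ccnd1 in 9, Lpl in 7, H2-DMb1 in 6 and Sdc3 in 5.

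In IMQ+SHP099 against IMQ, 0.983% of all genes tested passed. The difference passed for 3 of the 15 named genes, each with the lower value in the members. It was -3.71 ± 0.47 (SE; adjusted p = 1.57e-12 by edgeR) for Cxcl1, -3.00 for Tpm1 and -2.33 for Ifit1. Over the 12 alternatives Cxcl1 was called in 12, Tpm1 in 10 and Ifit1 in 6, with no tool other than edgeR among them. The change of Cxcl1 in the members alone was not called by DESeq2, limma voom or the newer dispersion estimate. Sham replicate 1 gave 2 members and IMQ+SHP099 replicate 1 gave 17 to these tests.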

How the results depend on the processing

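Calls depended on the tool and on the smallest libraries. The counts of genes called in IMQ against Sham, IMQ+SHP099 against IMQ and IMQ+SHP099 against Sham were 242, 84 and 241, and became 26, 1 and 31 with DESeq2, 85, 17 and 72 with the newer dispersion estimate, and 83, 19 and 91 with thinned counts. For the comparisons of IMQ+SHP099 with IMQ and with Sham, limma voom gave 3 and 140, and fits on the 2 groups compared gave 33 and 49. With no filter IMQ+SHP099 against IMQ gave 127. For IMQ and IMQ+SHP099 against Sham, the counts were 60 and 80 without Fn1 in the rule, 130 and 146 with C1q under 2, and 938 and 900 without the Cd209a and Mgl2 limit. With both libraries of under 20 members left out the counts were 684, 264 and 776. Leaving out 1 library gave 29 to 278, 2 to 124 and 53 to 280. The test of the difference from C1q macrophages gave 159 and 77 genes, 70 and 41 with the newer dispersion estimate, 62 and 57 without Fn1, 550 and 132 without the small libraries, and 46 to 260 and 11 to 109 with 1 library left out. Without Sham replicate 2, 62 genes passed in IMQ against Sham from 2 Sham cells, and H2-Aa, H2-Eb1 and H2-DMa turned to 1.62, 1.47 and 0.11, against -4.96, -4.84 and -2.45 without Sham replicate 1. Without Fn1, Ear2 in IMQ+SHP099 against Sham turned to 8.36. Causes were not tested.

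With 1 library left out, the share of kept cells differed by 3.09 to 4.38 percentage points between IMQ and Sham and by -3.77 to -0.663 between IMQ+SHP099 and IMQ. Under the keratin limit the ranges were 3.33 to 5.31 and -4.05 to -1.10, and of Lyz2 cells 45.7 to 56.9 and -24.8 to 12.96. The last difference was 2.51 with thinned counts and 12.96 without the small libraries.

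The log CPM difference between replicates 2 and 1 of a group correlated at 0.0233 to 0.068 between groups. Sham replicate 1 held 2 members, so these low values do not settle whether the numbers pair libraries. In the other kept cells the keratinocyte sum was higher in replicate 1 of each group. It was 41100 and 14460 CPM in Sham, 20850 and 10820 CPM in IMQ, and 35610 and 9152 CPM in IMQ+SHP099. The red cell sum was lower in replicate 1 of Sham and IMQ+SHP099 but higher in that of IMQ. With the replicate number as a block, 96, 45 and 106 genes were called. The planned test on C1q cells that met every other limit of the rule was not run, since Sham held 0 and 1 such cells.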
